A study of Mus musculus with 8 samples.

Results

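Wfdc1, Wfdc2, Wfdc3, Wfdc12, Wfdc15a, Wfdc15b, Wfdc18 and Slpi encode small secreted proteins built on the whey acidic protein (WAP) domain. They were taken by gene symbol from the count table, 8 genes of 53801, and were selected on the genotype difference that Wfdc15b and Wfdc18 had shown in these same libraries, the others being added as their relatives. Of the 8, Wfdc15b and Wfdc18 were clearly counted in the sorted Paneth cells and were higher in the Mll1 knockouts, Wfdc2 was near the limit of the counting, Wfdc3 had 3 counts in all, and Wfdc1, Wfdc12, Wfdc15a and Slpi had none in any library.

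The cells were viable EpCAM+ Cd24+ Paneth cells of the mouse small intestine, sorted in small lots from 4 β-catGOF; Mll1+/- mice (controls 1 to 4) and 4 β-catGOF; Mll1-/- mice (knockouts 1 to 4) and sequenced with the Smart-seq2 protocol. Both genotypes carried Lgr5-EGFP-IRES-CreERT2, in which the Lgr5 promoter drives a tamoxifen-inducible Cre in intestinal stem cells, and a β-catenin allele that loses an exon upon recombination and keeps Wnt signalling active, in the controls as in the knockouts. Mice of 4 to 6 weeks and of both sexes received tamoxifen on 3 days, 1 mg per injection in the sample labels, and were dissected 10 d later. Recombination driven from Lgr5 leaves some crypts without it, the methods paragraph on the sorting names littermates without β-catGOF, and in bulk samples fewer cells of a type and less RNA per cell cannot be told apart. Controls 1 and 2 and knockouts 1 and 2 carry one run of library numbers (set 1 here) and the other 4 libraries another (set 2). The targeted gene Kmt2a, which encodes Mll1, had 268 to 719 counts in controls against 328 to 523 in the knockouts, and this sum over all exons does not show whether the floxed part was deleted. Knockout 3 stood apart from the rest, with 19662 genes counted where the other 7 libraries had 22623 to 26074, and with a TMM factor of 0.632 against 0.821 to 1.34, so values are given with and without it where it matters.

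WAP domains are short folds held together by disulfide bonds between their cysteines. Several WAP proteins block serine proteases, and several kill bacteria. Slpi, the secretory leukocyte protease inhibitor, blocks neutrophil elastase and cathepsin G at mucosal surfaces. Wfdc15b, first described as a single WAP motif protein with antibacterial activity, and Wfdc18, an extracellular proteinase inhibitor known from the mammary gland, each carry 1 such domain. Wfdc2 is an epithelial WAP protein used as a serum marker of ovarian cancer, and Wfdc1 was described as a product of prostate stroma. Paneth cells are the secretory cells at the crypt base that release defensins, lysozyme and other antimicrobial proteins.

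The coding sequences of Wfdc15b and Wfdc18 are shown with that of the most similar gene beside each, because the counts separate a gene from its near copy only where the letters differ. They are from the GENCODE M21 annotation of GRCm38, printed from start codon to last codon, and capitals mark the codons for cysteine. Wfdc15b lies on the minus strand, with its coding part between chr2:164215117-164215469, and Wfdc15a on the same strand at chr2:164199662-164200036. Wfdc18 lies on the plus strand at chr11:83709118-83709996, and Wfdc17, a WAP gene outside the 8, at chr11:83704092-83704939.
Wfdc15b: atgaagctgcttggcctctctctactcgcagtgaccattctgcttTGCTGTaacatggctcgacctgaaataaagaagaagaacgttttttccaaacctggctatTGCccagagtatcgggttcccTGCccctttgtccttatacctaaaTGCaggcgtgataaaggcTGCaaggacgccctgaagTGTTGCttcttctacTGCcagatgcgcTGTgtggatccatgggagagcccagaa
Wfdc15a: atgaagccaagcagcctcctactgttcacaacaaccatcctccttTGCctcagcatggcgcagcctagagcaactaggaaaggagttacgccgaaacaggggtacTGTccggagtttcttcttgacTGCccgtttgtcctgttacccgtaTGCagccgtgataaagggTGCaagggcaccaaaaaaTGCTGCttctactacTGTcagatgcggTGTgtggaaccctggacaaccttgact
Wfdc18: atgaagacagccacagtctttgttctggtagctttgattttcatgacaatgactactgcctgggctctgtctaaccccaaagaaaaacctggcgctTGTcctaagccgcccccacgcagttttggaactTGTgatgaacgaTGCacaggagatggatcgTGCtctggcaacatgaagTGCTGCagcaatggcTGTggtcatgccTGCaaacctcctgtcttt
Wfdc17: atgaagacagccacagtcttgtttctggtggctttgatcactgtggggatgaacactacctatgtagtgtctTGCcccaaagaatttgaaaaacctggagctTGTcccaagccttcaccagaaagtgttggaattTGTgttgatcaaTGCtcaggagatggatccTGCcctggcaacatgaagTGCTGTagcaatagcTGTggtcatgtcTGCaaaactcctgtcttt
The coding part of Wfdc15b had 80 codons, 10 of them for cysteine, and that of Wfdc18 had 74 codons with 8 for cysteine. An adjacent pair of cysteine codons was found at least once in each of the 8 genes. Wfdc15b and Wfdc15a were the same at 162 of 241 aligned positions (67.2%), and Wfdc18 and Wfdc17 at 181 of 228 (79.4%). No stretch of 50 bases in the exons of these 4 genes occurred in the exons of another gene, and none of the exons of Wfdc15b, Wfdc18 or Wfdc2 overlapped another gene.

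The genotypes differed for Wfdc15b and Wfdc18, and these differences chose the genes, so they are given as a description without a test. Wfdc15b (ENSMUSG00000018211) received 24, 4, 9 and 15 reads in controls 1 to 4 against 315, 245, 20 and 358 reads in knockouts 1 to 4. Scaled to the effective library sizes, as normalized CPM (the count for each 1000000 reads of a library after TMM scaling), these were 1.51, 0.318, 0.81 and 1.19 in controls against 18.8, 14.1, 2.36 and 21.8 in the knockouts. Knockouts 1, 2 and 4 stood far above every control. Knockout 3 was just above the highest control on the normalized scale and below it in raw counts, 20 against the 24 of control 1, so that for this library the separation rests on the scaling. The mean was 0.956 ± 0.512 in controls against 14.2 ± 8.54 in the knockouts (± SD, 4 mice each), a log2 fold change of 3.87 ± 0.63 (SE, standard error), and without knockout 3 the knockout mean was 18.2 ± 3.86 (± SD, 3 mice).

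Wfdc18 (ENSMUSG00000000983) received 8, 64, 56 and 45 reads in controls 1 to 4 against 578, 322, 408 and 599 reads in knockouts 1 to 4. The normalized CPM were 0.503, 5.09, 5.04 and 3.56 in controls against 34.4, 18.5, 48.1 and 36.4 in the knockouts. Every knockout was above every control in raw counts and after scaling. Control 1 was the lowest library. Knockout 3 was the highest after scaling but below knockouts 1 and 4 in raw counts, and for Wfdc15b control 1 was the highest control and knockout 3 the lowest knockout. The mean was 3.55 ± 2.15 in controls and 34.4 ± 12.1 in knockouts (± SD, 4 mice each), a log2 fold change of 3.29 ± 0.53 (SE), and without knockout 3 the knockout mean was 29.8 ± 9.8 (± SD, 3 mice).

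**Figure D1:**
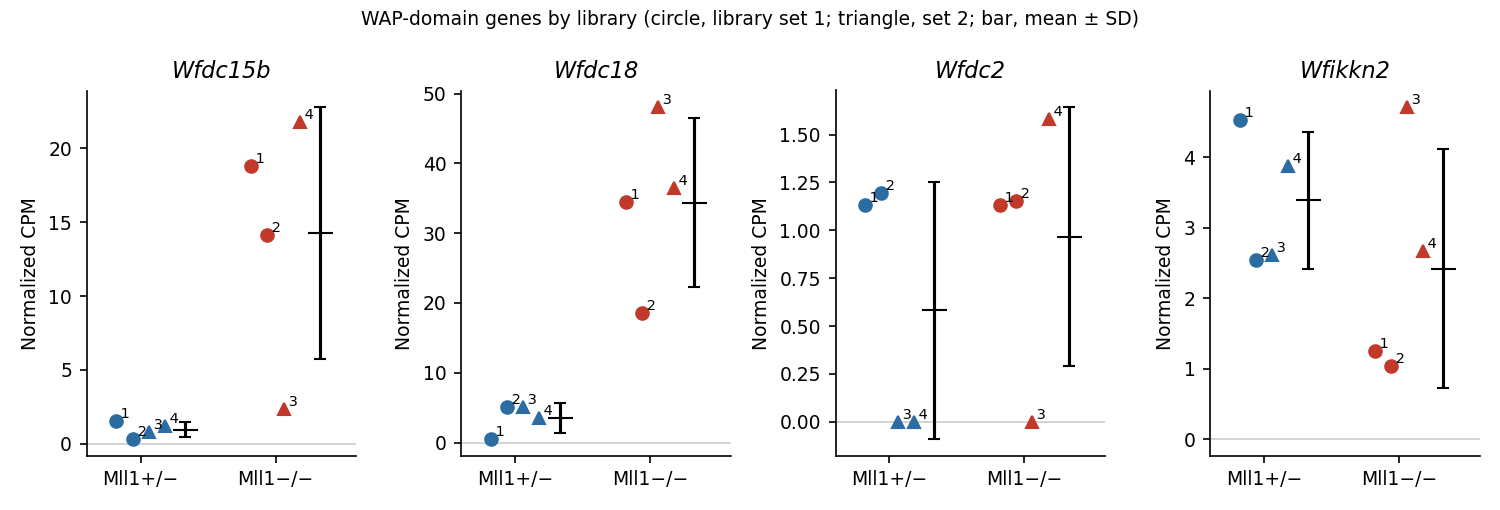
Normalized CPM (y axis) of 4 WAP-domain genes in the 4 Mll1+/- and 4 Mll1-/- libraries (x axis), with replicate numbers beside the points, circles for library set 1, triangles for set 2, and bars for the mean and SD. The knockouts lie above the controls for Wfdc15b and Wfdc18, with knockout 3 at 2.36 for Wfdc15b and 48.1 for Wfdc18, and the genotypes overlap for Wfdc2 and Wfikkn2.

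Over all 13439 genes that passed the filter on low counts, 25 (0.186%) were past both cutoffs (adjusted p ≤ 0.05 by edgeR's quasi-likelihood test and a log2 change of ≥ 0.5 in either direction), and 21 (0.156%) of the genes were past them and higher in the knockouts. Wfdc15b and Wfdc18 were among the 21, which is part of how they were chosen. Normalized CPM higher in every knockout than in every control were found in 2.59% of the tested genes, and raw counts higher in every knockout in 2.94%. When single libraries were left out, the log2 fold change of Wfdc15b stayed between 3.59 and 4.21 and that of Wfdc18 between 2.91 and 3.52, but each gene passed both cutoffs in only 1 of these 8 fits, Wfdc15b without knockout 3 and Wfdc18 without control 1. Leaving out any of controls 2, 3 and 4 or knockouts 1, 2 and 4 left neither of them past both cutoffs. With limma-voom or with a Y-linked covariate neither was past them, and with the library set as a block Wfdc15b was not.

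Per length of exon sequence the knockout means of both genes were close to each other, but the levels within a library were not. In the knockouts Wfdc15b, with 572 exon bases, had a mean of 24.9 normalized CPM per kb, and Wfdc18, with 1220, had 28.2. In knockout 3 the level per kb was 4.12 for Wfdc15b and 39.4 for Wfdc18, and without that library the order of the means turned, with 31.9 for Wfdc15b and 24.4 for Wfdc18. The means over all 4 knockouts lay at the 95.2nd and the 95.7th percentile of the tested genes. In the controls the level per kb was 1.67 for Wfdc15b and 2.91 for Wfdc18, at the 53.9th and the 69.2nd percentile.

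The share of Wfdc18 in the summed counts of the pair needs no scaling between libraries. It was 25% in control 1 (95% Wilson interval 13.2% to 42.1%), 94.1% in control 2 (85.8% to 97.7%), 86.2% in control 3 (75.7% to 92.5%) and 75% in control 4 (62.8% to 84.2%). It was 64.7% in knockout 1 (61.5% to 67.8%), 56.8% in knockout 2 (52.7% to 60.8%), 95.3% in knockout 3 (92.9% to 97%) and 62.6% in knockout 4 (59.5% to 65.6%). The intervals take each read as an independent draw. Copies of one molecule made by PCR are counted separately, so the intervals may be too narrow even for counting error, and they leave out differences between mice. Control 1 stood below the other controls and knockout 3 above the other knockouts by more than these intervals. This was not particular to them, since the intervals of controls 2 and 4, and those of knockouts 1 and 2, did not overlap either. Across the 8 libraries the log2 levels of Wfdc15b and Wfdc18, with 1 added, had a Pearson r of 0.69, and with the mean of each genotype taken out it was −0.44. The points share the libraries and their scaling, and 8 libraries carry little information on such a relation.

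**Figure D2:**
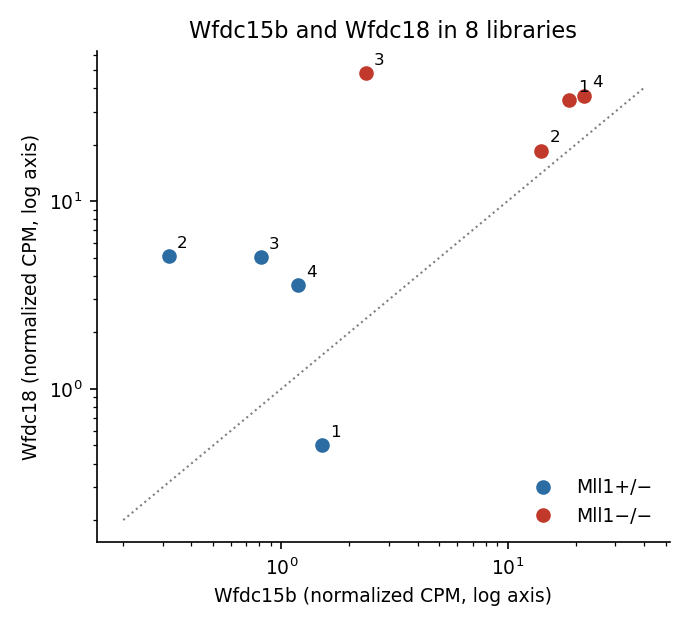
Wfdc15b (x axis) against Wfdc18 (y axis) in normalized CPM, both on log axes, for the 8 libraries with their replicate numbers, and the dotted line marks equal values. Knockouts 1, 2 and 4 lie together at the upper right, knockout 3 has a high Wfdc18 level of 48.1 with a Wfdc15b level of 2.36, and control 1 is the only library below the line.

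Wfdc2 (ENSMUSG00000017723, chromosome 2 from 164562413 to 164568510) was present at a low level that followed individual libraries. It had 18, 15, 0 and 0 reads in controls 1 to 4 against 19, 20, 0 and 26 reads in knockouts 1 to 4. The normalized CPM were 1.13 and 1.19 in controls 1 and 2 and 1.13, 1.15 and 1.58 in knockouts 1, 2 and 4. In the 3 libraries without a count, a limit of 3 counts allows up to 0.27 in control 3, 0.237 in control 4 and 0.353 in knockout 3, all below the levels of the other 5 libraries. This limit takes reads as independent draws, which copies made by PCR are not, so a difference in level between these libraries is not settled. The genotypes overlapped, with 0.581 ± 0.672 in controls against 0.966 ± 0.677 in the knockouts (± SD, 4 mice each) and a log2 fold change of 0.74 ± 1.07 (SE).

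The library set is a grouping that the choice of genes did not use, and it holds 2 mice of each genotype. In a model with genotype and set, 13 of 13439 genes (0.0967%) were past both cutoffs between the sets, and Wfdc15b, Wfdc18 and Wfdc2 were not among them. Wfdc2 had a log2 difference, set 2 minus set 1, of −1.89 (SE 1.1, adjusted p = 0.584 by edgeR's quasi-likelihood test), and knockout 4 was the only library of set 2 with a count. It was −2.69 to −1.39 with any other library left out. Without knockout 4, set 2 had no Wfdc2 count, and the fitted difference of −6.98, whose size depends on the prior count, had an adjusted p of 0.089 by edgeR's quasi-likelihood test. The difference between the sets was −0.23 for Wfdc15b (SE 0.61, adjusted p = 0.922) and 0.67 for Wfdc18 (SE 0.46, adjusted p = 0.648). With a library left out it lay between −1.16 (without knockout 4) and 0.28 (without knockout 3) for Wfdc15b, so its direction was not settled, and between 0.33 (without control 1) and 1.25 (without control 2) for Wfdc18. Within each set the genotypes can be set side by side only as a description, since the same libraries chose the genes. The difference of mean log2 levels, with 0.5 added to each CPM, was 3.71 in set 1 and 2.42 in set 2 for Wfdc15b and 3.44 in set 1 and 3.16 in set 2 for Wfdc18. With the set as a block in the fit the log2 fold change was 3.86 for Wfdc15b, which was then no longer past both cutoffs, and 3.29 for Wfdc18. For Wfdc2 it was 1.42 with the block and 0.74 without it.

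The other members had few or no counts. Wfdc3 had 2 counts in control 4 and 1 in knockout 2. Wfdc1, Wfdc12, Wfdc15a and Slpi had 0 counts in all 8 libraries, which allows a level of up to 0.027 normalized CPM over the libraries together. For a single library the limit was between 0.173 and 0.353, with reads taken as independent draws. Of the 8 members, 3 passed the filter, Wfdc15b, Wfdc18 and Wfdc2.

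A further 15 WAP-domain genes of the mouse were looked up, and 11 of them had at most 3 counts in every library. Wfikkn2 was the one that passed the filter. It and Wfikkn1 encode larger secreted proteins with several kinds of inhibitor domain that bind myostatin and related growth factors. Wfikkn2 had 4.53, 2.55, 2.61 and 3.88 normalized CPM in controls 1 to 4 against 1.25, 1.04, 4.71 and 2.68 in knockouts 1 to 4. The groups overlapped, and the log2 fold change of −0.52 ± 0.49 (SE; adjusted p = 0.929 by edgeR's quasi-likelihood test) did not pass the cutoffs. It was −1.04 without knockout 3 (adjusted p = 0.366), −0.3 without knockout 1 and −0.27 without knockout 2, and the difference of mean log2 levels was −1.25 in set 1 and 0.14 in set 2. Wfdc10 had 10 counts in control 1, 5 in control 4 and none elsewhere, Wfikkn1 had at most 8 counts in a library, and Wap, which names the family as the whey acidic protein of milk, had 3 counts in all. Wfdc17 had 4 counts in all and Wfdc21 had 1.

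**Figure D3:**
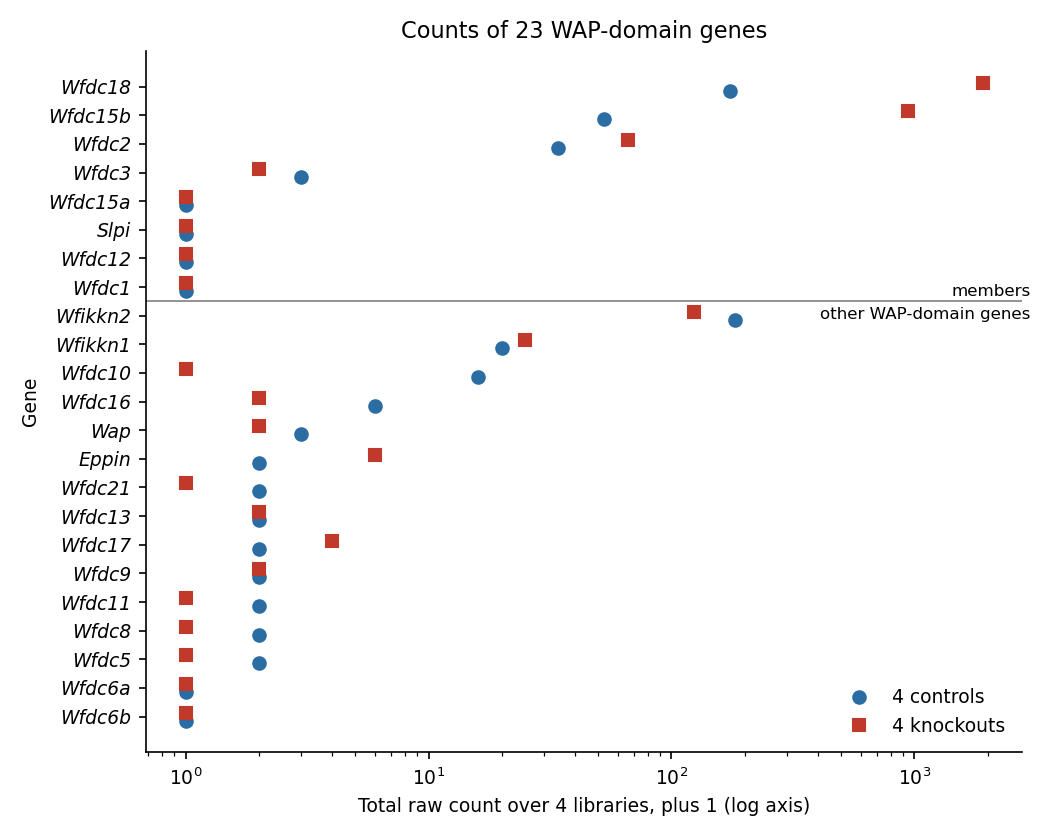
Total raw counts plus 1 (x axis, log scale) over the 4 control libraries (circles) and over the 4 knockout libraries (squares) for each of 23 WAP-domain genes (y axis), members above the line and the 15 others below it. Wfdc18 with 173 and 1907 counts and Wfdc15b with 52 and 938 counts are set apart from the rest of the family in the knockouts.

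The genes next to Wfdc15b and Wfdc18 were looked at because WAP genes lie in clusters. Wfdc15b shares its stretch of chromosome 2 with Wfdc5, Wfdc12, Wfdc15a and a run of seminal vesicle protein genes (Svs2, Svs3a, Svs3b, Svs4, Svs6). Of 13 genes within 100 kb, 12 had at most 3 counts in every library, and Wfdc15a, with a gap of 14.3 kb, had none. The exception was Stk4, a kinase of the Hippo pathway 58.9 kb away, with a log2 fold change of −0.49 ± 0.39 (SE; adjusted p = 0.913 by edgeR's quasi-likelihood test). Around Wfdc18, which has the chemokine genes Ccl3 and Ccl4 among its neighbours on chromosome 11, 10 of 14 genes had at most 3 counts in every library. Wfdc17, with a gap of 2.75 kb, had at most 2 in a library. E230016K23Rik, 85.3 kb away, had a log2 fold change of −0.07 ± 0.28 (SE; adjusted p = 0.995), and Heatr6, 42.4 kb away, had −0.48 (SE 0.31, adjusted p = 0.878). Gm11438 and Gm11434 had at most 13 and 15 counts in a library and were not tested. Of the 3 tested neighbours 0 were past both cutoffs or at an unadjusted p under 0.05, which 0.186% and 6.88% of all tested genes were, so that 0 of 3 is no result about the neighbours.

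**Figure D4:**
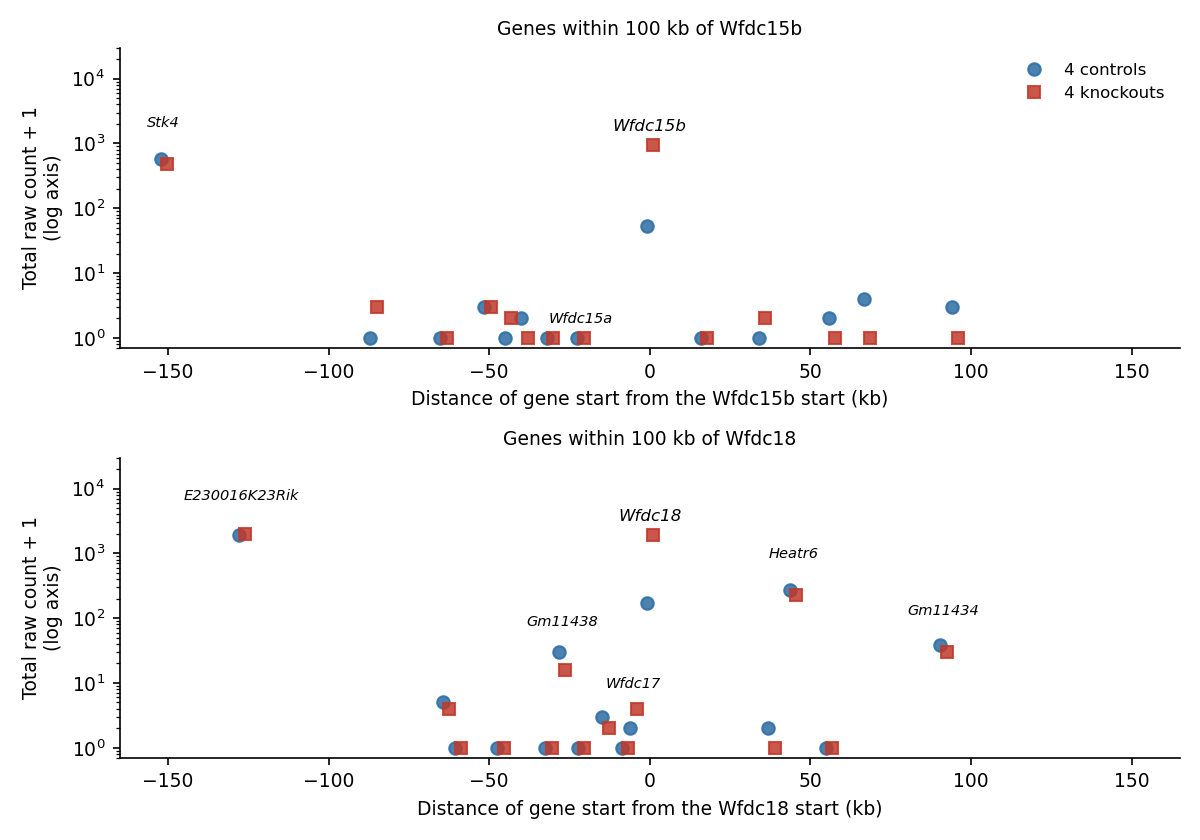
Total raw counts plus 1 (y axis, log scale) over the 4 controls (circles) and over the 4 knockouts (squares) for genes within 100 kb of Wfdc15b (upper panel) and of Wfdc18 (lower panel), placed by the distance of their start from the start of the named gene in kb (x axis), with circles and squares moved slightly apart. Wfdc15b and Wfdc18 have higher totals in the knockouts beside copies with few or no counts, Wfdc15a with 0 counts and Wfdc17 with 4.

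The 250 bases before the start of Wfdc15b and of Wfdc18 are shown because both genes were higher in the knockouts. They are from RefSeq on GRCm38.p6, in the direction of the gene, at chr2:164221664-164221913 on the minus strand for Wfdc15b and at chr11:83708754-83709003 on the plus strand for Wfdc18. RefSeq starts were found for 7 of the 8 members, all but Wfdc1. Capitals mark matches, on either strand, to the short forms searched: CTTTGA and CTTTGT (cores bound by Tcf and Lef factors, which act with β-catenin), TGANTCA (the form bound by AP-1), GATAAG (the form bound by zinc finger factors such as Gata6), TTTATG (the form bound by Cdx factors) and TATAAA (found where basal transcription factors bind).
Wfdc15b, before the start: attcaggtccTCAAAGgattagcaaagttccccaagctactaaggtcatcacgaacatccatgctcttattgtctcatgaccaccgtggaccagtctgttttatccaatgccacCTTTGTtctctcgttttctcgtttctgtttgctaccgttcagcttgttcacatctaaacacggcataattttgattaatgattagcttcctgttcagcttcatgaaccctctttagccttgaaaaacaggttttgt
Wfdc18, before the start: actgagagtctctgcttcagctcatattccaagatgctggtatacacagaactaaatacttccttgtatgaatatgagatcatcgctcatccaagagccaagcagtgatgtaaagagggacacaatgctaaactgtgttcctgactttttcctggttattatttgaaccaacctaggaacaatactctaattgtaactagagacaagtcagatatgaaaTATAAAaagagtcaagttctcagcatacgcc
Wfdc15b held CTTTGA on the opposite strand, beginning 240 bases before the start and read here as TCAAAG, and CTTTGT at 136 bases. Wfdc18 held TATAAA at 31 bases and neither Tcf and Lef core. Among 32851 windows of the same length, CTTTGA was in 13.8%, CTTTGT in 16.5%, either in 27.6% and TATAAA in 12.4%, so such matches are common. TGANTCA was in 6.75% of the windows, GATAAG was in 6.55%, and TTTATG was in 10.8%. In the other members, Wfdc3 held CTTTGA, Wfdc15a held GATAAG and TTTATG, and Wfdc2, Wfdc12 and Slpi held none of the 6. The marked letters did not overlap each other, and a match in a window does not show binding.

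The genes whose levels were most like those of each counted member over the 8 libraries were ranked by the Pearson r of log2 normalized CPM with 1 added. For Wfdc15b they were Metap2 (r = 0.976), a methionine aminopeptidase, Prdx1 (r = 0.968), a peroxiredoxin, and Anxa2 (r = 0.967), an annexin. Anxa2 had 15.3, 16, 16.2 and 14.8 normalized CPM in controls 1 to 4 against 36.8, 39.1, 21.2 and 36.4 in knockouts 1 to 4, with knockout 3 between the groups as for Wfdc15b. With the genotype means taken out, r was 0.933 for Metap2, 0.928 for Prdx1 and 0.872 for Anxa2. For Wfdc18 the most similar genes were Trim23 (r = 0.972), which encodes a ubiquitin ligase, and the predicted genes Gm10131 (r = 0.97) and Gm7908 (r = 0.964). For Wfdc2 they were Prr11 (r = 0.975), Slc16a3 (r = 0.962), a lactate transporter, and Ang2 (r = 0.962), a ribonuclease of the angiogenin family. Ang2 was at 29, 50.5, 9.36 and 9.9 normalized CPM in controls 1 to 4 against 42.4, 42, 14.3 and 46.2 in knockouts 1 to 4, low in the same 3 libraries in which Wfdc2 had no counts. These are the highest of 13438 values each, over libraries that share the genotype difference and the scaling, and are given as a description.

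The other protease inhibitors of the cells are given by their levels. Since 0.186% of all tested genes were past both cutoffs, counts of 0 in lists of 4 to 13 tested genes, here and in the protease and defence lists, are no result about the lists, and none of them had a gene past the cutoffs with limma-voom either. Of 21 genes with Kunitz or Kazal domains, 9 were tested and 0 were past both cutoffs, with a median log2 fold change of −0.27, where the median of all tested genes was 0.01. Spink4, a Kazal inhibitor of the gut epithelium, was the most abundant of all these inhibitors at 9477 ± 2745 normalized CPM in controls against 9293 ± 3911 in the knockouts (± SD, 4 mice each). Spint2, a Kunitz inhibitor of membrane serine proteases, was at 400.5 ± 36.5 and 390.7 ± 82.9. At an unadjusted p under 0.05, which 6.88% of the tested genes reached, this list had 3 genes, Tfpi2, App and Aplp2. Tfpi2, a Kunitz inhibitor that is laid down in matrix, had 28, 37, 20 and 61 reads in controls 1 to 4 against 132, 123, 106 and 120 in knockouts 1 to 4, with a log2 fold change of 1.61 ± 0.37 (SE; adjusted p = 0.21 by edgeR's quasi-likelihood test). It was past both cutoffs with DESeq2's Wald test (adjusted p = 0.00702) and without the filter on low counts (adjusted p = 0.00254). These fits called 138 and 290 genes in all, against 25 with edgeR and the filter.

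Among 45 serpins, the large family of inhibitors that trap serine proteases, 9 were tested and 0 were past both cutoffs, with a median log2 fold change of −0.28. Serpinb1a, an inhibitor of neutrophil elastase, was at 52.9, 64.6, 75.8 and 59.3 normalized CPM in controls 1 to 4 against 40.8, 39.4, 29.2 and 32.1 in knockouts 1 to 4. Every knockout was below every control, and the log2 fold change was −0.84 ± 0.18 (SE; adjusted p = 0.146 by edgeR's quasi-likelihood test). It was past both cutoffs in 2 of the alternatives, DESeq2's Wald test (adjusted p = 0.00428) and the fit without a filter on low counts (adjusted p = 0.0197). Those fits called 138 and 290 genes in all. Serpinb6a was at 26.6 ± 4.62 in controls against 28.2 ± 5.99 in the knockouts (± SD, 4 mice each), and its log2 fold change of 0.08 was −0.04 without knockout 3. Serpina1c, at an unadjusted p under 0.05 like Serpinb1a, belongs to a cluster of near-identical copies and is uncertain.

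Of 12 cystatins and tissue inhibitors of metalloproteinases, 4 were tested and 0 were past both cutoffs with edgeR or DESeq2, with a median log2 fold change of 0.2. Cst3, which blocks cysteine proteases outside the cell, was at 72 ± 12.5 and 80.6 ± 34.3 normalized CPM in controls and knockouts (± SD, 4 mice each), and Cstb, which does so inside the cell, at 37.1 ± 5.84 and 43.9 ± 9.2. Knockout 3 had 131.5 for Cst3 where the other knockouts had 57.9 to 70.7, and without it the log2 fold change of Cst3 turned from 0.16 to −0.18. Timp2, the 1 gene of the list at an unadjusted p under 0.05, had 1.95, 1.35, 1.8 and 1.35 in controls 1 to 4 against 4.41, 5.41, 2 and 4.38 in knockouts 1 to 4, with a log2 fold change of 1.33 ± 0.38 (SE; adjusted p = 0.387 by edgeR's quasi-likelihood test). As for Wfdc15b, knockout 3 was next to the controls. Without that library Timp2 was past both cutoffs, with a log2 fold change of 1.54 (adjusted p = 0.0334).

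**Figure D5:**
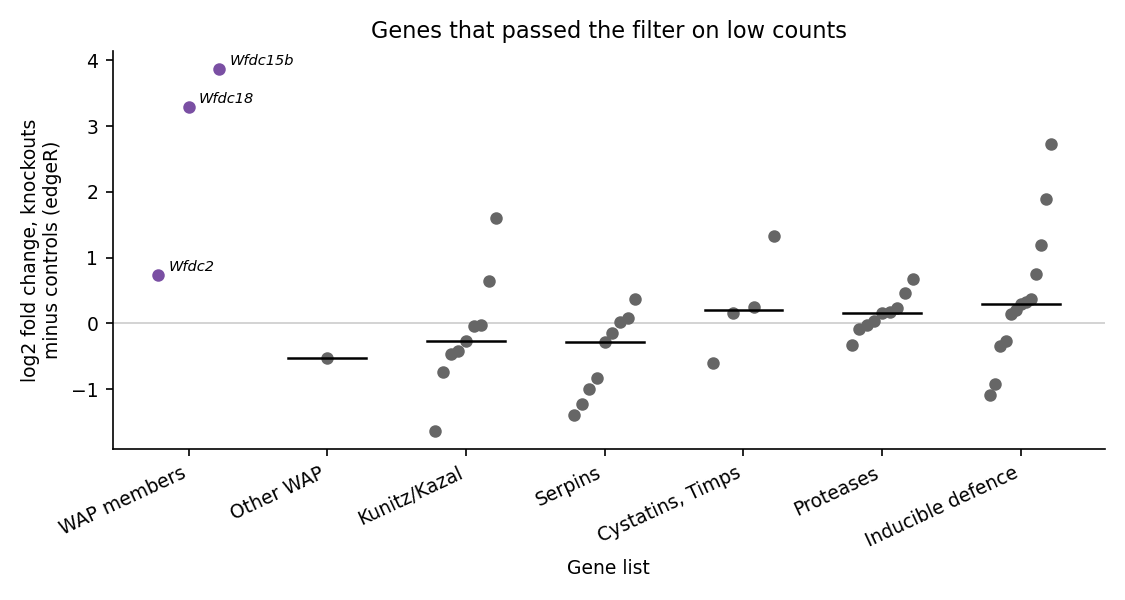
Log2 fold changes from edgeR, knockouts minus controls (y axis), of the genes of each list that passed the filter on low counts (x axis), each point a gene and each bar the median of its list. Wfdc15b is at 3.87 and Wfdc18 at 3.29, differences for which these genes were chosen, so that their place above the other lists is no finding, and Wfdc2 is at 0.74.

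Proteases that WAP proteins are known to bind, or that act in the same tissues, were listed as a group of 36 genes, of which 18 had at most 3 counts in every library. Elane, the neutrophil elastase, had 1 count in all 8 libraries, and cathepsin G (Ctsg) had 0. Of the 9 genes tested 0 were past both cutoffs with edgeR or DESeq2, with a median log2 fold change of 0.15. Mmp7, the metalloproteinase that processes defensins in mouse Paneth cells, was at 2632 ± 898.6 normalized CPM in controls against 2472 ± 1382 in the knockouts (± SD, 4 mice each). Tmprss2, a membrane serine protease, was at 162.3 ± 37.4 and 160 ± 72.8. The log2 fold change was −0.09 for Mmp7 and −0.02 for Tmprss2. With a library left out it ran from −0.56 to 0.11 for Mmp7 and from −0.38 to 0.15 for Tmprss2, lowest without knockout 3 for both genes. For both, knockout 3 was the highest library after scaling, at 4512 for Mmp7 and 264.2 for Tmprss2. In raw counts it was not, with 38298 for Mmp7 below the 40764 of control 3, and 2242 for Tmprss2 below the 2502 of control 4 and the 2541 of knockout 4. Adam10 was the gene of this list at an unadjusted p under 0.05, with 20.9 ± 4.46 and 33.1 ± 12.8 (± SD, 4 mice each) and an adjusted p of 0.671 by edgeR's quasi-likelihood test.

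Of 23 genes of inducible epithelial defence, 13 were tested and 0 were past both cutoffs with edgeR or with DESeq2's Wald test on the filtered genes, with a median log2 fold change of 0.29. Reg3g, a lectin that kills Gram-positive bacteria, was at 2374 ± 1343 normalized CPM in controls against 1972 ± 1356 in the knockouts (± SD, 4 mice each), and Pigr, the receptor that carries IgA across the epithelium, was at 578.3 ± 117.8 and 456.5 ± 133.5. The log2 fold change of Reg3g was −0.27, and with a library left out it ran from −0.84 (without knockout 3) to 0.02 (without control 3). Cxcl1, a neutrophil chemokine and the 1 gene of this list at an unadjusted p under 0.05, had 19, 0, 8 and 1 reads in controls 1 to 4 against 99, 67, 32 and 3 in knockouts 1 to 4, with overlapping groups and an adjusted p of 0.588 by edgeR's quasi-likelihood test. Without the filter on low counts it was past both cutoffs (log2 fold change 2.73, adjusted p = 0.00166), in a fit that called 290 genes in all against 25 with the filter.

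The markers of the sorted cells and of other cell types are given here as context. The 20 Paneth cell markers in the table all passed the filter, 0 were past both cutoffs or at an unadjusted p under 0.05 with edgeR, and they took 34.4% to 51.7% of the counts of the controls and 40.1% to 52.7% of the knockouts. Knockout 3 had the highest share. Of 18 myeloid markers 12 had at most 3 counts in every library, S100a8, S100a9 and Ly6g had at most 1, and the summed level was 5.09 to 8.8 normalized CPM in controls against 3.59 to 8.58 in the knockouts. The lymphoid list summed to 4.51 to 13.9 in controls against 2.62 to 13 in the knockouts, with Cd3e and Cd79a at most at 1 count. Ptprc, the phosphatase shared by all leukocytes, was the 1 gene of that list that passed the filter, with 201, 106, 43 and 37 reads in controls 1 to 4 against 185, 157, 11 and 32 in knockouts 1 to 4. It was lower in set 2 than in set 1 (log2 difference −2.09, SE 0.32, adjusted p = 0.0457 by edgeR's quasi-likelihood test), as was the tuft cell marker Sh2d6 (−1.8, SE 0.22, adjusted p = 0.0433), both past the cutoffs between the sets. Which cells the Ptprc reads came from was not tested. The stromal list summed to 4.59 to 7.23 and 5.13 to 7.54. Goblet cell markers summed to 2254 to 9440 in controls against 2988 to 9740 in the knockouts, and enterocyte markers to 149.5 to 335 and 133.8 to 263.7. Enteroendocrine markers summed to 635.6 to 1945 in controls against 57.3 to 2696 in the knockouts, where knockouts 1, 2 and 4 (528.4, 57.3 and 409.9) were below every control and knockout 3 above them, with 11 of 11 tested genes at a log2 fold change below 0, and tuft cell markers to 301.9 to 847.4 and 157.1 to 545.8, with 9 of 9 below 0, where 6595 of the 13439 tested genes (49.1%) were below 0. Of the goblet, enterocyte, enteroendocrine and tuft cell genes 0 were past both cutoffs with edgeR. At an unadjusted p under 0.05, which 6.88% of all tested genes reached, there were 6 of 11 enteroendocrine, 2 of 9 tuft cell, 2 of 12 goblet cell (Fcgbp and Zg16) and 2 of 7 enterocyte genes (Fabp2 and Sis), all with lower values in the knockouts, and the part of these cells in the levels of Wfdc15b and Wfdc18 was not tested.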

How the data were processed

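The authors sequenced Smart-seq2 libraries, ran bcl2fastq 2.19.1, aligned the reads to mm10 with GSNAP and used featureCounts 1.6.3 with Ensembl release 92 to count the reads that mapped uniquely. What they deposited are raw counts, whole numbers without normalization. The strand setting is not given in the sources used here. Totals were 13037832 to 14380240 per library, and 3 counts correspond to 0.173 to 0.353 normalized CPM. The 92 spike-in rows were left out. Symbols were matched by identifier for 53620 of 53801 genes.

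Genotypes are those of the labels, with 4 independent mice each. Replicate numbers follow accession order and pair nothing. Control 4 and knockout 4 have 1 animal number in common in the labels, and it was not used. All libraries differed by more than sampling noise (the lowest chi-square per degree of freedom between 2 of them was 12.4).

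In R 4.3.3, edgeR 4.0.16 fitted TMM factors and robust quasi-likelihood models to 13439 genes (filterByExpr, minimum count 10, minimum total 15), with Benjamini-Hochberg adjustment over all of them. The cutoffs were adjusted p ≤ 0.05 and a log2 change of ≥ 0.5 in either direction. Standard errors were approximated as the fold change divided by the square root of F. The code was tested on simulated data.

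The members, lists and tests were chosen with earlier results of these data known. Named are all 8 members, other WAP genes with 10 counts in a library, list genes past both cutoffs or else the 2 most abundant of a list, the 3 most similar genes of each tested member, and neighbours within 100 kb with 10 counts. Further genes (those at an unadjusted p under 0.05 or past the cutoffs in an alternative, Elane, Ctsg, Fcgbp, Zg16, Fabp2, Sis, Wap, Wfikkn1, Wfdc17, Wfdc21 and genes within 100 kb) were named after their values were seen. Of 14 cystatins and Timps 12 were found, and of 21 Paneth cell markers 20. Alternatives were DESeq2 1.42.0 (size factors, Wald test), voom in limma 3.58.1, scaling without the 50 most abundant genes, no filter, 10 counts in every library, the library set as a block, a Y-linked covariate, thinning to the smallest total and each library left out.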

Additional observations from a re-analysis of the deposited data

Results flagged for a closer look

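In 56 groups of 4 libraries, formed from the named genes and the marker sums, the distance of the highest and of the lowest library to its neighbour was divided by the range. In 3 groups the gap was above Dixon's limit of 0.829, where chance gives about 1 in 20 groups, and in each the library set apart was knockout 3. Spint2 had 514.3 normalized CPM in knockout 3 and between 342.2 and 361.9 in knockouts 1, 2 and 4 (gap 0.886), but in raw counts it was the lowest of the knockouts, 4365 against 5744, 5977 and 5949. E230016K23Rik was at 56.8 against 28.1 to 32.4 (0.848), and its 482 raw counts lay among the 471, 508 and 533 of the other knockouts. The summed level of the Paneth cell markers was 836000 against 301200 to 369700 (0.872), on a scale in which the TMM factor of this library, 0.632, raises all of its values. As a share of raw counts these markers made up 52.7% in knockout 3 and 40.1% to 44.8% in the other knockouts. For Wfdc15b the gap of knockout 3 below the other knockouts was 0.605 of the range, and for Wfdc18 the gap of control 1 below the other controls was 0.667, both under the limit.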

How the results depend on the processing

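The log2 fold changes of Wfdc15b (3.59 to 4.21 over all fits) and of Wfdc18 (2.91 to 3.71) kept their direction in each alternative in which the gene passed the filter, and moved by less than the spread between mice. Calls did not hold in the same way. The number of genes past both cutoffs was 25, and it was 290 without a filter, 138 with DESeq2's Wald test, 13 with at least 10 counts in every library, 11 with limma-voom, 10 with the Y-linked covariate and 10 to 152 with a library left out, the highest without knockout 3. Of the members, 2 passed, against 1 with the library set as a block (Wfdc18, while Wfdc15b was lost), 0 with limma-voom, 0 with the Y-linked covariate and 0 to 1 with a library left out. With at least 10 counts in every library the number was 0 because Wfdc15b, Wfdc18 and Wfdc2 did not pass that filter. The log2 fold change of Wfdc2 was 0.74, 1.82 with limma-voom, 1.42 with the library set as a block, 1.33 with the Y-linked covariate and 0.33 to 1.29 with a library left out. Of the genes with Kunitz or Kazal domains and of the serpins, 1 each passed without a filter and 1 each with DESeq2's Wald test (Tfpi2 and Serpinb1a). With a library left out 0 to 1 genes of the Kunitz and Kazal, the cystatin and Timp and the defence lists passed, in each case without knockout 3 (Aplp2, Timp2 and Tnf). Of the defence genes 2 passed without a filter, Cxcl1 and Tnf. Between library sets 13 genes passed, 325 without a filter and 0 to 57 with a library left out, the highest without knockout 3. The causes of these changes were not tested, apart from the filter of 10 counts. No paired analysis was possible because the replicate numbers are names in accession order that pair no mice. Where a member had no count, 3 counts as a limit allow a level of up to 0.173 normalized CPM in knockout 2 and 0.353 in knockout 3.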

Other observations

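Tnf, the inflammatory cytokine, did not pass the filter on low counts. It had 8, 5, 1 and 6 reads in controls 1 to 4 against 113, 42, 0 and 17 reads in knockouts 1 to 4. Knockouts 1, 2 and 4 were above every control and knockout 3 had no count, the same library that was lowest among the knockouts for Wfdc15b. Aplp2, a relative of the amyloid precursor protein with a Kunitz domain, was at 53.1, 54.8, 28.8 and 43.3 normalized CPM in knockouts 1 to 4 and at 25.8 to 31 in the controls, with knockout 3 inside the range of the controls. App, which carries the same kind of domain in some isoforms, was at 104.1 ± 14.9 normalized CPM in controls against 75.1 ± 8.21 in the knockouts (± SD, 4 mice each), a log2 fold change of −0.47 ± 0.17 (SE; adjusted p = 0.538 by edgeR's quasi-likelihood test). These genes were picked out after their values were seen.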
